A study of Mus musculus with 8 samples.

Results

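The response of dorsal root ganglia to a paw inflamed with complete Freund's adjuvant (CFA) was followed in wild-type mice. The members are the 2 count files titled WT-CFA and the 2 titled WT-Veh, which makes 4 of the 8 libraries of the series, and they were compared across all genes. The wild-type (WT) mice were littermates without Cre of mice with an inducible deletion of Ehmt2 (G9a) in sensory neurons (Avil-iCreERT2, G9a flox/flox, called iKO). Whether the WT mice carried floxed alleles was not stated. In the WT CFA group the left paw received CFA, and in the WT vehicle group it received vehicle. Ganglia were collected 14 days later. The other 4 libraries, 2 of iKO CFA and 2 of iKO vehicle, served to estimate the spread between libraries and as further reference values. Dose, age, sex, the spinal levels taken and whether each library came from its own animals were not stated, so a p-value here reflects the spread among libraries, which may be technical.

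CFA is an oil emulsion of killed mycobacteria that keeps the injected paw inflamed for weeks. The ganglion holds the cell bodies of the sensory neurons that serve the paw, together with satellite glia, Schwann cells, blood vessels, connective tissue and resident immune cells. Nociceptors are the neurons that report damaging heat, pressure and chemicals, and the peptidergic ones release CGRP and substance P. In inflamed tissue these neurons are known to become sensitised by prostaglandins and cytokines, and to raise the output of peptides and of channels such as TRPV1 and TRPA1. Because whole ganglia were measured, fewer cells of a type and less RNA per cell cannot be told apart in any result below.

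The libraries stood apart in ways their labels did not give. Read totals were 41617192 and 32176987 in WT CFA libraries 1 and 2, against 26312614 and 29763833 in WT vehicle libraries 1 and 2. Of 25780 genes in the files, 21425 and 19548 had a read in WT CFA, against 23554 and 24349 in WT vehicle, although WT vehicle was sequenced less deeply. On the first principal component, with 40.8% of the variance, both WT vehicle libraries lay at −139.6 and −113 and the 6 other libraries at positive values. On the second, with 20.5%, WT CFA library 1 lay beside the iKO vehicle libraries and WT CFA library 2 beside the iKO CFA libraries. The correlation of log2 CPM (reads scaled to 1000000 per library, with TMM-scaled library sizes) between both WT CFA libraries was 0.9505. WT CFA library 1 reached 0.966 with each iKO vehicle library. Ehmt2, the gene deleted in iKO, had 74.2 and 61.3 CPM in WT CFA, against 74.4 and 65.4 CPM in WT vehicle and 31.6 to 44.95 CPM in the iKO libraries, so both WT groups lay above every iKO library.

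**Figure D1:**
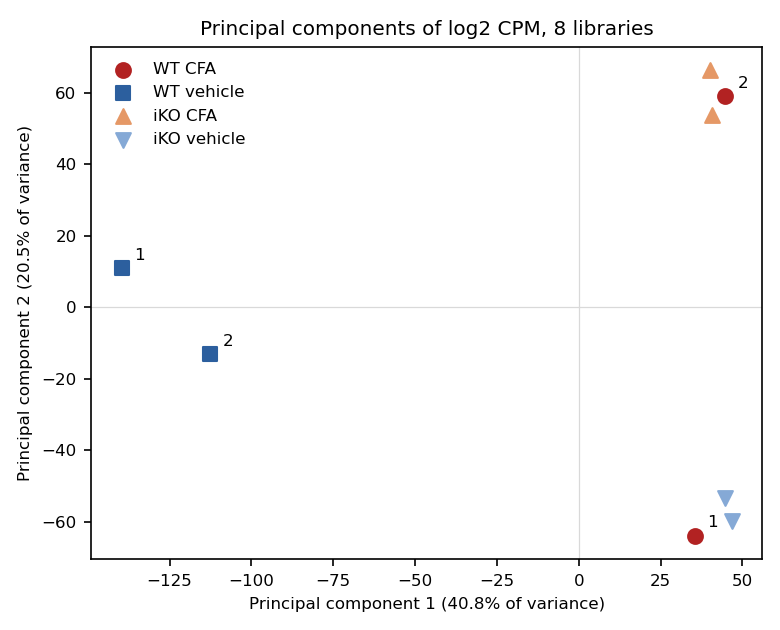
Position of the 8 libraries on the first (x) and second (y) principal component of log2 CPM, with the percent of variance on each axis. Numbers mark WT libraries 1 and 2. Both WT vehicle libraries sit far to the left of the 6 others, and the WT CFA libraries sit far apart on the second component.

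The libraries within WT CFA differed with transcript length. Over 10770 genes with a mean of at least 3 log2 CPM and a known length, split into 5 bins by length, the median log2 ratio of WT CFA library 1 to library 2 was −0.36 in the shortest bin (median 1.47 kb) and 0.59 in the longest (median 7.17 kb). The same ratio between the WT vehicle libraries lay between −0.07 and −0.02 in every bin. The median log2 fold change of WT CFA over WT vehicle was 0.49 in the shortest bin and −0.24 in the longest. It was 0.60 and −0.65 without WT CFA library 1, against 0.29 and 0.02 without WT CFA library 2. In the shortest bin 28.8% of genes were called higher and 3.76% lower, and in the longest 2.18% were called higher and 14.6% lower. The part of length in the gene results below was not tested.

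**Figure D2:**
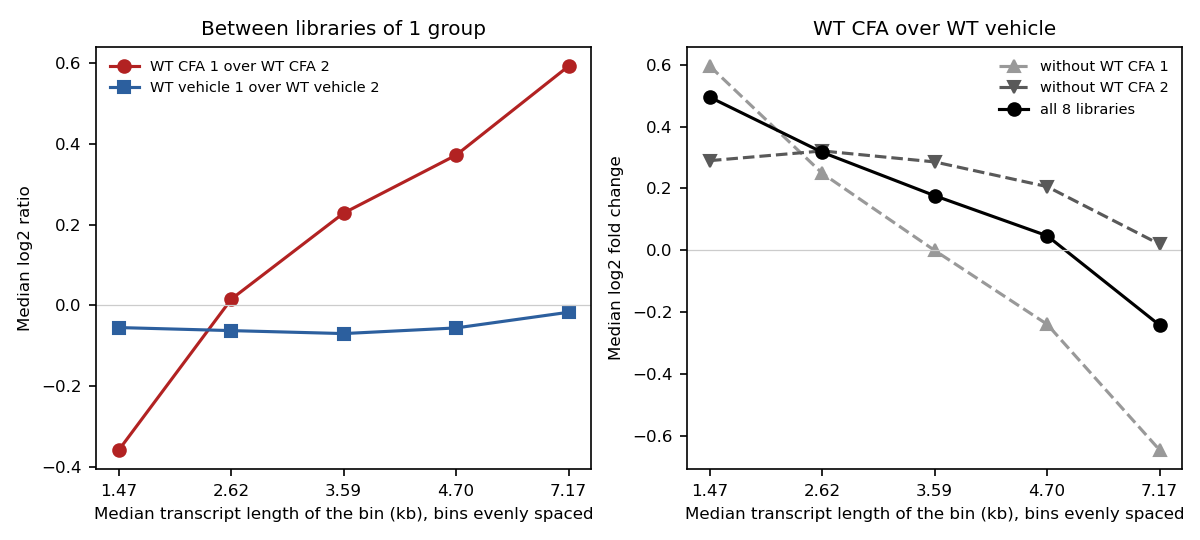
Left, median log2 ratio between the libraries of each WT group (y) in 5 bins of transcript length (x, median kb of the bin). Right, median log2 fold change of WT CFA over WT vehicle in the same bins, with all 8 libraries and without each WT CFA library. The WT CFA pair spans −0.36 to 0.59 across the bins while the WT vehicle pair stays within −0.07 to −0.02.

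In edgeR's quasi-likelihood test with Benjamini-Hochberg adjustment over 20235 genes, 3406 genes (16.8%) passed an adjusted p of 0.05. In WT CFA 1643 genes (8.12%) were higher and 1763 (8.71%) lower than in WT vehicle. Large changes were mostly falls, since 1485 of the lower genes and 730 of the higher ones differed by more than 1 on the log2 scale. In 3404 of the 3406 called genes both WT CFA libraries lay on one side of both WT vehicle libraries, which held for 56.1% of all genes tested. Called genes mostly set WT vehicle apart from everything else. In 3099 of them (91.0%) both WT vehicle libraries lay outside all 6 other libraries, against 37.7% of genes tested, while in 614 (18.03%) both WT CFA libraries lay outside all 6 others, against 8.09% of genes tested (3.51% above and 4.58% below).

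The number of calls rested on single libraries. Without WT vehicle library 1 it was 259 (20 higher and 239 lower), and without WT vehicle library 2 it was 1262 (449 and 813). Without WT CFA library 1 it was 7474 (3276 and 4198), and without WT CFA library 2 it was 6497 (3615 and 2882). Leaving out an iKO library gave 1769 to 1801, and the 4 WT libraries alone gave 754 (37 higher and 717 lower). Scaling mattered for the split of directions. With total counts as library sizes the median of all genes moved by −0.32 on the log2 scale, and 519 genes were higher and 3030 lower, so that 14.6% of calls were higher, against 48.2% with scaled sizes. Changes below are read against the median of all genes, which was −0.03 with scaled sizes. In the 42 gene lists described below, the fit on the 4 WT libraries alone called at most 1 member higher.

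A smaller set of genes passed in every setting of one strict rule, namely the fit on all libraries, each of the 8 fits without 1 library, the fit on the 4 WT libraries alone and DESeq2. It held 14 higher genes (0.0692% of those tested) and 232 lower ones (1.15%). Among the higher ones, Fam171a2, a neuronal membrane protein, had 86.9 and 97.7 CPM in WT CFA, against 32.6 and 32.3 CPM in WT vehicle (log2 fold change 1.51 ± 0.16, adjusted p = 0.00171). Tlx2, a homeobox transcription factor of neural crest derivatives, had 159.8 and 149.8 CPM in WT CFA, against 45.4 and 56.95 CPM in WT vehicle (log2 fold change 1.60 ± 0.18, adjusted p = 0.00209). Vstm2l had 115 and 115 CPM in WT CFA, against 35.6 and 45.5 CPM in WT vehicle (log2 fold change 1.50 ± 0.19, adjusted p = 0.00309). In all of them the WT groups did not overlap, and in Fam171a2 and Vstm2l both WT CFA libraries also lay above the 4 iKO libraries. Car8, a protein that binds the inositol trisphosphate receptor, had 35.9 and 50.4 CPM in WT CFA, against 14.1 and 10.4 CPM in WT vehicle (log2 fold change 1.82 ± 0.25, adjusted p = 0.00457). Cnmd, the cartilage protein chondromodulin, had 27.99 and 37.4 CPM in WT CFA, against 6.0 and 4.94 CPM in WT vehicle (log2 fold change 2.58 ± 0.23, adjusted p = 8.69e-04), with 15.9 to 28.9 CPM in the iKO libraries. Tmem254a, one of a set of near-identical gene copies whose reads can be shared, had 89.01 and 83.8 CPM in WT CFA, against 17.7 and 26.5 CPM in WT vehicle and 27.03 to 33.4 CPM in the iKO libraries (log2 fold change 1.97 ± 0.23).

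Other large rises did not pass under each left-out library. Agt, which encodes angiotensinogen, had 7.5 and 14.1 CPM in WT CFA, against 2.14 and 2.44 CPM in WT vehicle (log2 fold change 2.23 ± 0.33, adjusted p = 0.00549). Ly6h, a neuronal membrane protein that binds nicotinic receptors, had 57.7 and 97.4 CPM in WT CFA, against 13.4 and 20.2 CPM in WT vehicle (log2 fold change 2.21 ± 0.30, adjusted p = 0.00414). Chrna3, a nicotinic receptor subunit, had 19.7 and 5.2 CPM in WT CFA, against 2.85 and 2.65 CPM in WT vehicle (log2 fold change 2.18 ± 0.55, adjusted p = 0.0311), and Comp, a matrix protein of cartilage and tendon, had 30.2 and 11.1 CPM in WT CFA, against 4.42 and 3.93 CPM in WT vehicle (log2 fold change 2.31 ± 0.46, adjusted p = 0.0145). The WT CFA libraries differed most from each other in Chrna3 and Comp, with library 1 the higher. Significance was lost without WT vehicle library 1 for all of the called genes (adjusted p 0.0647 to 0.201), without WT vehicle library 2 for Chrna3 and Comp (adjusted p 0.0854 to 0.141) and without any iKO library for Chrna3 (adjusted p 0.0527 to 0.0543).

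Several genes of peptidergic nociceptors were higher in WT CFA. Of 23 tested genes for neuropeptides and their processing 9 rose, 2 fell and 12 did not pass, with a median log2 fold change of 0.60. Calca, which encodes CGRP, had 1890.3 and 4032 CPM in WT CFA, against 624 and 972 CPM in WT vehicle (log2 fold change 1.89 ± 0.37, adjusted p = 0.0133). Tac1, which encodes substance P, had 301 and 366 CPM in WT CFA, against 128 and 196 CPM in WT vehicle (log2 fold change 1.04 ± 0.23, adjusted p = 0.0212). Both lay above WT vehicle in each WT CFA library, and Tac1 also above all 4 iKO libraries. Nppb, the natriuretic peptide of itch neurons, had 27.6 and 65.98 CPM in WT CFA, against 8.08 and 10.7 CPM in WT vehicle (log2 fold change 2.32 ± 0.37, adjusted p = 0.00719), the largest rise of the list. Nmb, which encodes neuromedin B, had 192 and 198 CPM in WT CFA, against 59.9 and 95.97 CPM in WT vehicle (log2 fold change 1.32 ± 0.23, adjusted p = 0.00991). Bdnf, a neurotrophin that nociceptors release onto spinal neurons, had 65.9 and 82.8 CPM in WT CFA, against 30.2 and 35.1 CPM in WT vehicle (log2 fold change 1.19 ± 0.19, adjusted p = 0.00773). Calca and Tac1 are best known from pain, and Nppb and Nmb from itch. Scg2, a granule protein, had 580.3 and 517 CPM in WT CFA, against 232 and 358 CPM in WT vehicle (log2 fold change 0.89 ± 0.23, adjusted p = 0.0327), and Adcyap1, which encodes the peptide PACAP, had 147 and 137 CPM in WT CFA, against 86.1 and 102 CPM in WT vehicle (log2 fold change 0.60 ± 0.18, adjusted p = 0.0495). Nmb, Scg2 and Adcyap1 lay above all 6 other libraries in both WT CFA libraries.

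Calcb, the second CGRP gene, had 226 and 332 CPM in WT CFA, against 104 and 152 CPM in WT vehicle (log2 fold change 1.13 ± 0.27, adjusted p = 0.0253). The falls of the list were in peptides known to be induced by nerve injury. Gal, which encodes galanin, had 20.5 and 24.7 CPM in WT CFA, against 97.6 and 57.2 CPM in WT vehicle (log2 fold change -1.78 ± 0.27, adjusted p = 0.00631), and 8.84 to 13.05 CPM in the iKO libraries. Npy, which encodes neuropeptide Y, had 0.214 and 1.06 CPM in WT CFA, against 10.6 and 4.77 CPM in WT vehicle (log2 fold change -3.62 ± 0.79, adjusted p = 0.0198). In both genes WT vehicle library 1 was the highest library. Library by library the counts higher and lower were 0 and 0 (8 and 2 at an unadjusted p under 0.05) without WT vehicle library 1, 7 and 2 without library 2, 9 and 3 without WT CFA library 1, 12 and 3 without library 2, and 4 to 5 and 2 without an iKO library. Total counts as library sizes gave 4 higher and 2 lower (median 0.27). The threshold was missed without WT vehicle library 1 for all of the called genes (adjusted p 0.0617 to 0.296), without WT vehicle library 2 for Adcyap1 (adjusted p = 0.0926) and without 1 or more of the iKO libraries for Calcb, Tac1, Scg2 and Adcyap1 (adjusted p 0.0501 to 0.124).

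Few transduction and excitability channels passed. Of 39 tested 4 rose and 1 fell, and their median was 0.25. Over all genes tested 8.12% rose and 8.71% fell, so the share of risen members was near that of all genes. Trpv1, the capsaicin and heat channel named in the title of the series, had 199 and 182 CPM in WT CFA, against 66.7 and 97.97 CPM in WT vehicle. Trpa1, the irritant channel named beside it, had 124 and 77.2 CPM in WT CFA, against 40.7 and 58.1 CPM in WT vehicle. The groups did not overlap in either gene. The log2 fold changes were 1.21 ± 0.21 for Trpv1 (adjusted p = 0.010) and 1.03 ± 0.27 for Trpa1 (adjusted p = 0.0333). In the iKO libraries Trpv1 had 130.4 to 142 CPM, below both WT CFA libraries, while Trpa1 had 54.7 to 87.9 CPM, which spans WT CFA library 2.

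Hcn2, a pacemaker channel that nociceptors need for inflammatory pain in mice, had 159 and 82.6 CPM in WT CFA, against 37.9 and 55.5 CPM in WT vehicle (log2 fold change 1.37 ± 0.31, adjusted p = 0.0224). WT CFA lay across the lower iKO range of 98.6 to 205 CPM, and WT vehicle lay below it. Piezo1, a pressure-gated channel also found in vessels and other non-neuronal cells, had 5.02 and 4.76 CPM in WT CFA, against 15.6 and 13.3 CPM in WT vehicle (log2 fold change -1.57 ± 0.25, adjusted p = 0.00713), below all iKO libraries too. Scn10a, the sodium channel Nav1.8 of nociceptors, had 1444 and 547 CPM in WT CFA, against 569 and 834 CPM in WT vehicle and did not pass (adjusted p = 0.419). Its WT CFA libraries lay on both sides of WT vehicle. With a library left out there were 0 higher and 0 lower (4 and 1 at an unadjusted p under 0.05) without WT vehicle library 1, 2 and 1 without library 2, 6 and 14 without WT CFA library 1, 19 and 1 without library 2, and 1 to 2 and 1 without an iKO library. Total counts in place of scaled sizes gave 2 higher and 1 lower (median -0.08), and with scaled sizes the median became -0.24 without WT CFA library 1. The test no longer passed without WT vehicle library 1 for all of the called genes (adjusted p 0.0772 to 0.242), without WT vehicle library 2 for Trpa1 and Hcn2 (adjusted p 0.0524 to 0.0592) and without 1 or more of the iKO libraries for Trpa1 and Hcn2 (adjusted p 0.0503 to 0.072).

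Receptors of the Mrgpr family, which mark itch neurons and non-peptidergic nociceptors, moved in both directions. Of 19 Mrgpr and itch receptors tested 3 rose and 2 fell (median 0.44), against 8.12% higher and 8.71% lower over all genes tested. Mrgprx1, an itch receptor, had 37.8 and 34.2 CPM in WT CFA, against 8.98 and 13.1 CPM in WT vehicle (log2 fold change 1.70 ± 0.22, adjusted p = 0.00316). Mrgpra3, the chloroquine receptor of the same neurons, had 27.03 and 22.7 CPM in WT CFA, against 9.55 and 13.2 CPM in WT vehicle (log2 fold change 1.13 ± 0.22, adjusted p = 0.0139). Both WT CFA libraries were the highest of the 8 in both genes. Mrgpre, a receptor of the same family, had 46.7 and 37.8 CPM in WT CFA, against 17.9 and 25.1 CPM in WT vehicle (log2 fold change 0.97 ± 0.22, adjusted p = 0.0229). Mrgprb5 had 4.35 and 4.38 CPM in WT CFA, against 10.6 and 14.7 CPM in WT vehicle (log2 fold change -1.54 ± 0.29, adjusted p = 0.0131). Mrgprb1 had 0 reads in both WT CFA libraries and 19 in WT vehicle, at least 6.66-fold lower when 3 reads are set as the floor of the WT CFA group (adjusted p = 0.0448). Mrgprd, the marker of the main non-peptidergic class, had 276 and 117 CPM in WT CFA, against 126 and 152 CPM in WT vehicle and did not pass (adjusted p = 0.354). Members of the family are similar in sequence, so reads can be shared between them. The counts higher and lower were 1 and 0 without WT vehicle library 1, 3 and 0 without library 2, 3 and 3 without WT CFA library 1, 10 and 1 without library 2, and 2 to 3 and 1 without an iKO library. With scaled sizes the median turned to -0.09 without WT CFA library 1. Calls were lost without WT vehicle library 1 for all of the called genes but Mrgprx1 (adjusted p 0.063 to 0.192), without WT vehicle library 2 for Mrgprb5 and Mrgprb1 (adjusted p 0.0726 to 0.119), without WT CFA library 1 for Mrgprb1 (adjusted p = 0.0627), without WT CFA library 2 for Mrgprb1 (adjusted p = 0.0544) and without 1 or more of the iKO libraries for Mrgpre and Mrgprb1 (adjusted p 0.0546 to 0.082), and Mrgprx1 passed without each library.

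Receptors for inflammatory mediators had calls in both directions. Of 32 tested 4 rose and 7 fell (median -0.13), against 8.12% higher and 8.71% lower over all genes tested. Ptger1, a prostaglandin E2 receptor, had 9.51 and 9.68 CPM in WT CFA, against 3.65 and 3.28 CPM in WT vehicle (log2 fold change 1.47 ± 0.25, adjusted p = 0.00942), and 3.33 to 3.84 CPM in the iKO libraries. Il1r1, the interleukin 1 receptor, had 6.78 and 7.87 CPM in WT CFA, against 24.2 and 21.03 CPM in WT vehicle (log2 fold change -1.63 ± 0.25, adjusted p = 0.00616). Csf2rb, the shared receptor chain for GM-CSF on myeloid cells, had 2.24 and 4.72 CPM in WT CFA, against 33.01 and 27.7 CPM in WT vehicle (log2 fold change -3.13 ± 0.37, adjusted p = 0.00229). Ptger1 was high in WT CFA alone among the 4 groups, whereas WT vehicle was the highest group in the others. Left-out libraries gave 0 higher and 1 lower without WT vehicle library 1, 2 and 4 without library 2, 3 and 10 without WT CFA library 1, 7 and 9 without library 2, and 2 and 4 without an iKO library. On total counts 2 higher and 9 lower (median -0.46) were called, and with scaled sizes the median became 0.01 without WT vehicle library 2 and 0.01 without WT CFA library 2. No call was made without WT vehicle library 1 for Ptger1 and Il1r1 (adjusted p 0.0704 to 0.0789) and without WT vehicle library 2 for Ptger1 (adjusted p = 0.0551), and Csf2rb passed without each library.

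Receptors for neurotrophic factors rose where they passed. Of 23 factors and receptors tested 3 rose and 1 fell (median 0.36), against 8.12% higher and 8.71% lower over all genes tested. Gfra3, the artemin receptor, had 91.95 and 65.8 CPM in WT CFA, against 35.1 and 39.7 CPM in WT vehicle (log2 fold change 1.08 ± 0.20, adjusted p = 0.0125). Cntfr, the receptor chain for ciliary neurotrophic factor, had 57.8 and 59.6 CPM in WT CFA, against 21.8 and 32.8 CPM in WT vehicle (log2 fold change 1.10 ± 0.22, adjusted p = 0.0153). In these receptors WT vehicle lay below the iKO libraries as well, where Gfra3 had 57.9 to 77.99 CPM. The fall was in Lif, an injury-induced cytokine, with 0.401 and 0.958 CPM in WT CFA, against 3.59 and 2.98 CPM in WT vehicle (log2 fold change -2.28 ± 0.57, adjusted p = 0.0298). Recounts higher and lower were 0 and 0 (5 and 2 at an unadjusted p under 0.05) without WT vehicle library 1, 3 and 0 without library 2, 5 and 5 without WT CFA library 1, 11 and 3 without library 2, and 3 and 0 without an iKO library. Under scaling to total counts 3 higher and 2 lower (median 0.03) passed. The call was lost without WT vehicle library 1 for all of the called genes (adjusted p 0.126 to 0.205), without WT vehicle library 2 for Gfra3 and Lif (adjusted p 0.0502 to 0.0957) and without any iKO library for Lif (adjusted p 0.0503 to 0.0583).

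**Figure D3:**
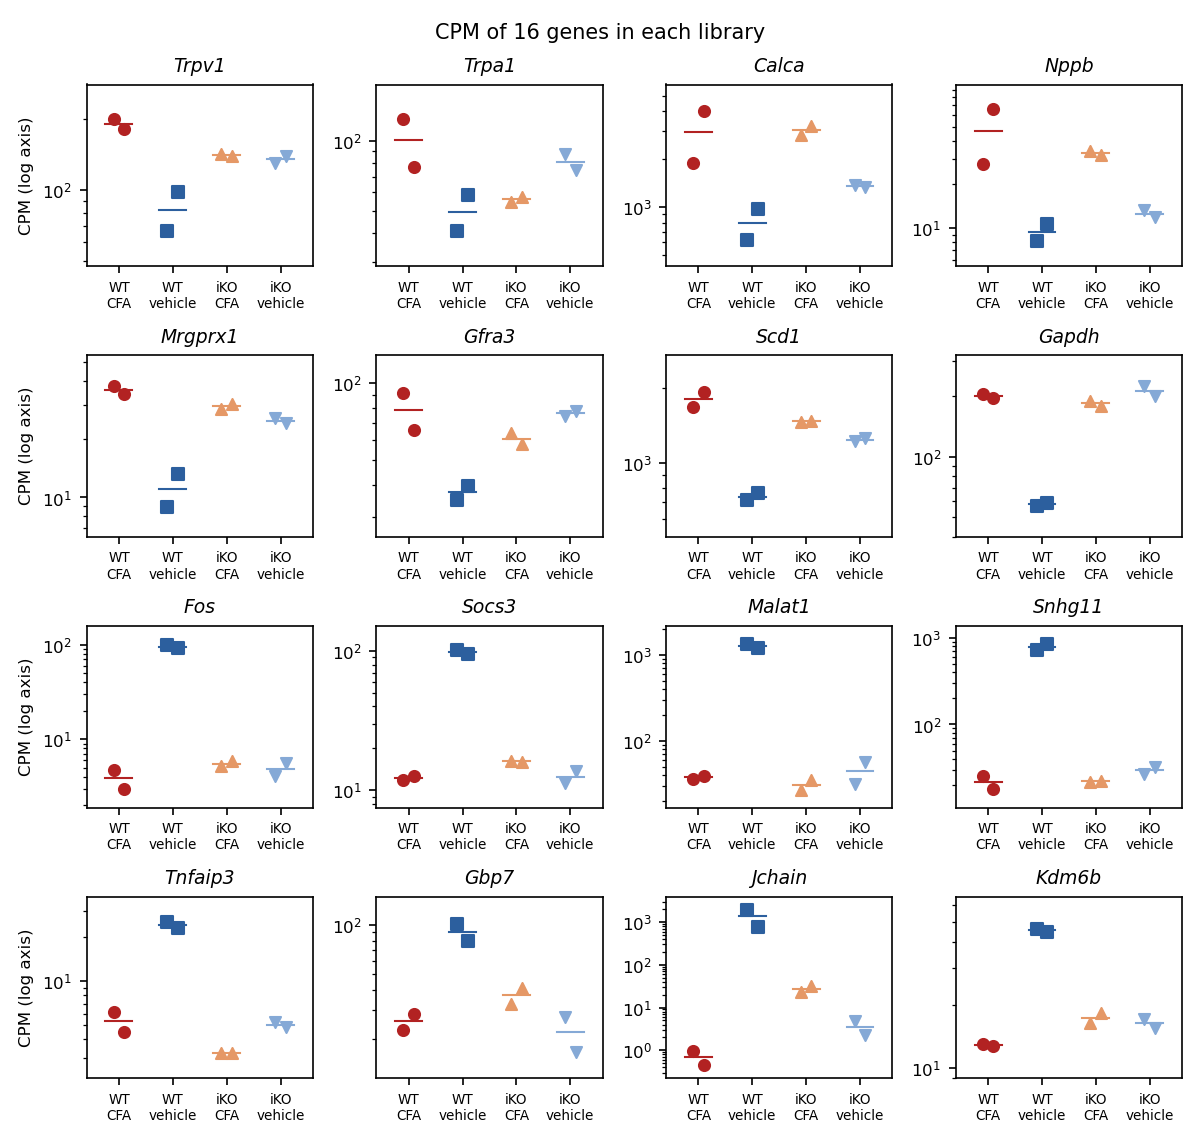
CPM (log axis) of 16 genes in each library, with a panel for each gene and WT CFA, WT vehicle, iKO CFA and iKO vehicle from left to right. Points are libraries and lines are group means. Trpv1 and Mrgprx1 are highest in WT CFA, whereas for Fos, Socs3, Malat1 and Snhg11 the 2 WT vehicle libraries stand above the 6 others.

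Cytoskeletal genes of neurons rose where they passed, and few synaptic genes passed. Of 30 neurofilament, tubulin and axonal transport genes 8 rose and 0 fell (1 at an unadjusted p under 0.05, 1 by DESeq2 and 0 by limma-voom), with a median of 0.39. Tuba1a, an alpha tubulin whose reads can be shared with close family members, had 5809 and 9608 CPM in WT CFA, against 1779 and 2026 CPM in WT vehicle (log2 fold change 2.02 ± 0.27, adjusted p = 0.00396). Uchl1, a neuronal ubiquitin hydrolase, had 3107 and 2853 CPM in WT CFA, against 1154 and 1548 CPM in WT vehicle (log2 fold change 1.14 ± 0.21, adjusted p = 0.0121). Stmn3, a tubulin-binding protein, had 1241 and 2233 CPM in WT CFA, against 592 and 763 CPM in WT vehicle (log2 fold change 1.36 ± 0.29, adjusted p = 0.0181). Each WT CFA library lay above both WT vehicle libraries in all of these. Higher and lower members numbered 0 and 0 (8 and 1 at an unadjusted p under 0.05) without WT vehicle library 1, 4 and 0 without library 2, 8 and 10 without WT CFA library 1, 20 and 1 without library 2, and 3 to 4 and 0 without an iKO library. Unscaled library totals gave 3 higher and 1 lower (median 0.06), and with scaled sizes the median became -0.03 without WT CFA library 1. Significance was lost without WT vehicle library 1 for all of the called genes (adjusted p 0.0524 to 0.163), without WT vehicle library 2 for Stmn3 (adjusted p = 0.0573) and without iKO CFA library 2 for Stmn3 (adjusted p = 0.0531).

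Of 37 genes of synaptic vesicles and release 3 rose and 0 fell (also 0 unadjusted, by DESeq2 and by limma-voom), with a median of 0.33. This share of risen members was near the 8.12% over all genes tested. Syt5, a calcium sensor of dense-core vesicles, had 122 and 124 CPM in WT CFA, against 47.4 and 60.6 CPM in WT vehicle (log2 fold change 1.19 ± 0.20, adjusted p = 0.00793). Syp, the vesicle protein synaptophysin, had 793 and 676 CPM in WT CFA, against 334 and 419.6 CPM in WT vehicle (log2 fold change 0.96 ± 0.20, adjusted p = 0.0159). Slc17a7, the vesicular glutamate transporter VGLUT1 of large sensory neurons, had 218 and 158 CPM in WT CFA, against 75.4 and 104 CPM in WT vehicle (log2 fold change 1.07 ± 0.23, adjusted p = 0.0196). These vesicle genes lay below the iKO range in both WT vehicle libraries. In refits the counts were 0 higher and 0 lower (3 and 0 at an unadjusted p under 0.05) without WT vehicle library 1, 3 and 0 without library 2, 3 and 10 without WT CFA library 1, 25 and 1 without library 2, and 1 to 2 and 0 without an iKO library. Total counts as library sizes gave 1 higher and 0 lower (median 0.01), and with scaled sizes the median turned to -0.29 without WT CFA library 1. The threshold was missed without WT vehicle library 1 for all of the called genes (adjusted p 0.0947 to 0.167) and without 1 or more of the iKO libraries for Syp and Slc17a7 (adjusted p 0.0513 to 0.0553).

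The markers that define ganglion cells were all detected. Of 12 tested 5 rose and 0 fell (also 0 unadjusted, by DESeq2 and by limma-voom), with a median of 0.64. Tubb3, a neuronal tubulin, had 3723 and 2836 CPM in WT CFA, against 1653 and 1956 CPM in WT vehicle (log2 fold change 0.86 ± 0.22, adjusted p = 0.030), and Isl1, a transcription factor of sensory neurons, had 93.9 and 89.8 CPM in WT CFA, against 50.97 and 61.3 CPM in WT vehicle (log2 fold change 0.71 ± 0.17, adjusted p = 0.0257). Avil, the sensory neuron gene whose promoter drives Cre in iKO, had 942 and 398 CPM in WT CFA, against 509 and 662 CPM in WT vehicle and did not pass (adjusted p = 0.751). Its WT CFA libraries lay on both sides of WT vehicle, as those of Scn10a did. Refits gave 0 higher and 0 lower (5 and 0 at an unadjusted p under 0.05) without WT vehicle library 1, 1 and 0 without library 2, 6 and 1 without WT CFA library 1, 9 and 0 without library 2, and 1 to 2 and 0 without an iKO library. Total counts in place of scaled sizes gave 1 higher and 0 lower (median 0.32). The test no longer passed without WT vehicle library 1 for both genes (adjusted p 0.171 to 0.207), without WT vehicle library 2 for both genes (adjusted p 0.0572 to 0.0595) and without any iKO library for both genes (adjusted p 0.0721 to 0.0963).

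Genes of the response to nerve injury fell where they passed. Of 26 tested 0 rose (1 at an unadjusted p under 0.05, 0 by DESeq2 and 0 by limma-voom) and 9 fell, with a median of -0.71. Socs3, the feedback inhibitor of cytokine signalling through STAT3, had 11.9 and 12.7 CPM in WT CFA, against 102 and 94.8 CPM in WT vehicle, and 11.2 to 16.3 CPM in the iKO libraries (log2 fold change -3.00 ± 0.19, adjusted p = 2e-04). Atf3, the transcription factor that marks injured sensory neurons, had 22.5 and 32.8 CPM in WT CFA, against 117 and 86.8 CPM in WT vehicle (log2 fold change -1.88 ± 0.24, adjusted p = 0.00332). Sox11, a transcription factor of axon regrowth, had 9.93 and 7.67 CPM in WT CFA, against 38.8 and 22.2 CPM in WT vehicle (log2 fold change -1.79 ± 0.30, adjusted p = 0.00826). WT vehicle alone was high, and WT CFA lay near the iKO libraries. Library by library the counts higher and lower were 0 and 2 without WT vehicle library 1, 0 and 8 without library 2, 0 and 14 without WT CFA library 1, 2 and 15 without library 2, and 0 and 8 to 9 without an iKO library. Scaling to total counts gave 0 higher and 15 lower (median -1.03). Calls were lost without WT vehicle library 1 for Sox11 (adjusted p = 0.0766), and Socs3 and Atf3 passed without each library.

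Genes of cholesterol synthesis rose where they passed. Of 32 enzymes and regulators tested 16 rose and 0 fell (also 0 unadjusted, by DESeq2 and by limma-voom), with a median of 0.70. Scd1, the desaturase that makes monounsaturated fatty acids, had 1683 and 1939 CPM in WT CFA, against 711 and 759.6 CPM in WT vehicle (log2 fold change 1.30 ± 0.19, adjusted p = 0.00526). Dhcr7, the last step of cholesterol synthesis, had 173 and 138 CPM in WT CFA, against 64.1 and 72.9 CPM in WT vehicle (log2 fold change 1.18 ± 0.19, adjusted p = 0.00713). Sqle, the squalene epoxidase, had 388 and 297 CPM in WT CFA, against 149 and 168 CPM in WT vehicle (log2 fold change 1.11 ± 0.20, adjusted p = 0.010). All 3 were lowest in WT vehicle among the 8 libraries. With a library left out there were 0 higher and 0 lower (19 and 0 at an unadjusted p under 0.05) without WT vehicle library 1, 6 and 0 without library 2, 18 and 0 without WT CFA library 1, 27 and 0 without library 2, and 7 and 0 without an iKO library. On total counts 5 higher and 0 lower (median 0.37) were called. No call was made without WT vehicle library 1 for all of the called genes (adjusted p 0.0547 to 0.0998).

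Glycolysis and hypoxia genes also rose where they passed. Of 30 tested 9 rose and 0 fell (1 at an unadjusted p under 0.05, 1 by DESeq2 and 1 by limma-voom), with a median of 0.51. Gapdh, a glycolytic enzyme often used as a reference gene, had 205 and 197 CPM in WT CFA, against 57.1 and 58.7 CPM in WT vehicle, and 179.7 to 225 CPM in the iKO libraries (log2 fold change 1.80 ± 0.17, adjusted p = 0.00118). Eno1, an enolase, had 811 and 515 CPM in WT CFA, against 199 and 236 CPM in WT vehicle (log2 fold change 1.61 ± 0.25, adjusted p = 0.0064). Both have many processed copies in the mouse genome, so their values are uncertain. Egln3, an oxygen sensor induced by hypoxia, had 7.1 and 6.78 CPM in WT CFA, against 2.04 and 3.16 CPM in WT vehicle (log2 fold change 1.41 ± 0.27, adjusted p = 0.0128). The counts higher and lower were 1 and 0 without WT vehicle library 1, 5 and 0 without library 2, 11 and 3 without WT CFA library 1, 18 and 2 without library 2, and 4 to 5 and 0 without an iKO library. Under scaling to total counts 4 higher and 1 lower (median 0.18) passed. The call was lost without WT vehicle library 1 for Eno1 and Egln3 (adjusted p 0.075 to 0.115), and Gapdh passed without each library.

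Some respiratory chain genes rose, and the WT CFA libraries differed from each other. Of 57 nuclear genes of the chain 15 rose and 1 fell (median 0.54). The fallen gene was Ndufs5, whose value is uncertain because its reads can be assigned to a near-identical copy. The sum of the gene and its copy was higher in WT CFA (ratio of means 1.84). Cyc1, a subunit of complex III, had 157 and 232 CPM in WT CFA, against 74.4 and 96.9 CPM in WT vehicle (log2 fold change 1.18 ± 0.23, adjusted p = 0.0142). Ndufs8, a subunit of complex I, had 91.9 and 173 CPM in WT CFA, against 44.6 and 56.7 CPM in WT vehicle (log2 fold change 1.38 ± 0.29, adjusted p = 0.0164). In both WT CFA library 2 was the higher of the pair. Left-out libraries gave 0 higher and 1 lower without WT vehicle library 1, 2 and 1 without library 2, 41 and 1 without WT CFA library 1, 19 and 3 without library 2, and 2 to 5 and 1 without an iKO library. Unscaled library totals gave 3 higher and 1 lower (median 0.22). Of the 13 listed genes encoded in mitochondria 7 rose and 0 fell (also 0 unadjusted, by DESeq2 and by limma-voom), with a median of 1.61. Their summed level was 43800.2 and 132944 CPM in WT CFA, against 31460.1 and 24492 CPM in WT vehicle and 14154 to 59946 CPM in the iKO libraries. TrnL2, a mitochondrial transfer RNA outside this list and named after its values were seen, was called lower, with WT CFA near 0 reads. ND2, a subunit of complex I, had 3426 and 11742 CPM in WT CFA, against 1605 and 1197 CPM in WT vehicle (log2 fold change 2.44 ± 0.50, adjusted p = 0.0156), and ATP6, a subunit of the ATP synthase, had 61.7 and 253 CPM in WT CFA, against 20.6 and 13.5 CPM in WT vehicle (log2 fold change 3.20 ± 0.59, adjusted p = 0.0116). COX1, a subunit of complex IV, had 19008 and 54082 CPM in WT CFA, against 14756 and 11393 CPM in WT vehicle and did not pass (adjusted p = 0.0518). Recounts higher and lower were 0 and 0 (11 and 0 at an unadjusted p under 0.05) without WT vehicle library 1, 0 and 0 (7 and 0 at an unadjusted p under 0.05) without library 2, 11 and 0 without WT CFA library 1, 6 and 0 without library 2, and 2 to 3 and 0 without an iKO library. Total counts as library sizes gave 3 higher and 0 lower (median 1.29). Significance was lost without WT vehicle library 1 for Cyc1, Ndufs8, ND2 and ATP6, and without WT vehicle library 2 for Ndufs8, ND2 and ATP6.

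Subunits of the proteasome, which degrades proteins, and of the proton pump, which acidifies lysosomes and synaptic vesicles, rose where they passed. Of 47 subunits tested 18 rose and 0 fell (also 0 unadjusted, by DESeq2 and by limma-voom), with a median of 0.41. Psmb5, the chymotrypsin-like catalytic subunit, had 166 and 289 CPM in WT CFA, against 60.99 and 82.2 CPM in WT vehicle (log2 fold change 1.67 ± 0.28, adjusted p = 0.00816). Atp6ap1, an accessory protein of the pump, had 457 and 428 CPM in WT CFA, against 229.5 and 222 CPM in WT vehicle (log2 fold change 0.97 ± 0.17, adjusted p = 0.0101), above all iKO libraries. Higher and lower members numbered 0 and 0 (16 and 0 at an unadjusted p under 0.05) without WT vehicle library 1, 3 and 0 without library 2, 24 and 0 without WT CFA library 1, 31 and 0 without library 2, and 4 to 5 and 0 without an iKO library. Total counts in place of scaled sizes gave 4 higher and 0 lower (median 0.09). The threshold was missed without WT vehicle library 1 for both genes (adjusted p 0.0811 to 0.109). Of 76 cytosolic ribosomal proteins 3 rose and 0 fell (4 at an unadjusted p under 0.05, 2 by DESeq2 and 2 by limma-voom), with a median of 0.12. In refits the counts were 0 higher and 0 lower (7 and 1 at an unadjusted p under 0.05) without WT vehicle library 1, 1 and 1 without library 2, 37 and 1 without WT CFA library 1, 3 and 31 without library 2, and 2 and 0 without an iKO library. Scaling to total counts gave 2 higher and 6 lower (median -0.21), and with scaled sizes the median turned to -0.04 without WT vehicle library 2 and -0.38 without WT CFA library 2.

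Immediate early genes, which neurons and other cells switch on within minutes of a stimulus, were mostly lower in WT CFA. Of 39 tested 1 rose and 22 fell, with a median of -1.45. Fos, a subunit of the AP-1 transcription factor, had 4.7 and 3.01 CPM in WT CFA, against 99.1 and 91.9 CPM in WT vehicle, and 4.09 to 5.87 CPM in the iKO libraries. Fosl2, another AP-1 subunit, had 15.2 and 14.1 CPM in WT CFA, against 112 and 93.8 CPM in WT vehicle, and Ccn1, a secreted matrix protein, had 2.59 and 3.29 CPM in WT CFA, against 81.4 and 109 CPM in WT vehicle. WT vehicle was the high group in all of these, and the WT CFA libraries lay among the iKO libraries or just under them. The log2 fold changes were -4.62 ± 0.28 for Fos (adjusted p = 2e-04), -2.81 ± 0.19 for Fosl2 (adjusted p = 2.55e-04) and -5.02 ± 0.26 for Ccn1 (adjusted p = 1.31e-04). Zfp36, which encodes the mRNA-destabilising protein tristetraprolin, had 3.9 and 5.95 CPM in WT CFA, against 119.8 and 85.5 CPM in WT vehicle (log2 fold change -4.39 ± 0.28, adjusted p = 2.14e-04). Dusp1, a phosphatase that switches off MAP kinases, had 18.3 and 19.7 CPM in WT CFA, against 74.6 and 68.5 CPM in WT vehicle (log2 fold change -1.92 ± 0.19, adjusted p = 0.00137). Refits gave 0 higher and 12 lower without WT vehicle library 1, 0 and 20 without library 2, 1 and 26 without WT CFA library 1, 2 and 29 without library 2, and 0 and 22 to 23 without an iKO library. On total counts 0 higher and 30 lower (median -1.78) were called. Every call named here was kept without each library in turn.

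Genes that NF-kappaB switches on, several of which feed back to restrain it, were also mostly lower. Of 27 tested 1 rose and 15 fell, with a median of -2.11. Birc3, an inhibitor of apoptosis, had 3.02 and 3.42 CPM in WT CFA, against 25.7 and 20.3 CPM in WT vehicle (log2 fold change -2.84 ± 0.24, adjusted p = 8.69e-04). Tnfaip3, the ubiquitin-editing enzyme A20, had 6.17 and 4.48 CPM in WT CFA, against 25.4 and 22.9 CPM in WT vehicle (log2 fold change -2.18 ± 0.24, adjusted p = 0.00188). Vcam1, an adhesion molecule for leukocytes, had 7.96 and 11.8 CPM in WT CFA, against 72.1 and 53.2 CPM in WT vehicle (log2 fold change -2.66 ± 0.25, adjusted p = 0.00118), and Il1b, the cytokine interleukin 1 beta, had 0.401 and 0.445 CPM in WT CFA, against 13.1 and 8.88 CPM in WT vehicle (log2 fold change -4.69 ± 0.48, adjusted p = 0.00148). The iKO libraries held 0.172 to 1.43 CPM of Il1b, so WT vehicle was again the one high group. Library by library the counts higher and lower were 0 and 5 without WT vehicle library 1, 0 and 12 without library 2, 1 and 16 without WT CFA library 1, 2 and 17 without library 2, and 0 and 14 without an iKO library. Under scaling to total counts 0 higher and 18 lower (median -2.43) passed. All of these calls held without each library in turn.

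Interferon response genes fell where they passed. Of 41 tested 0 rose (also 0 unadjusted, by DESeq2 and by limma-voom) and 19 fell, with a median of -1.27. Irf1, a transcription factor that drives many of them, had 12.9 and 16.6 CPM in WT CFA, against 65.9 and 55.9 CPM in WT vehicle (log2 fold change -2.05 ± 0.29, adjusted p = 0.00453). Gbp4 and Gbp7 encode guanylate-binding proteins that attack intracellular microbes and have close family members. Gbp4 had 1.66 and 1.61 CPM in WT CFA, against 91.5 and 54.9 CPM in WT vehicle (log2 fold change -5.48 ± 0.49, adjusted p = 9.15e-04), and Gbp7 had 22.8 and 28.5 CPM in WT CFA, against 102 and 80.1 CPM in WT vehicle (log2 fold change -1.83 ± 0.27, adjusted p = 0.00584). In each of these genes WT vehicle was above all iKO libraries too. With a library left out there were 0 higher and 3 lower without WT vehicle library 1, 0 and 11 without library 2, 1 and 20 without WT CFA library 1, 0 and 25 without library 2, and 0 and 15 to 19 without an iKO library. No call was made without WT vehicle library 1 for Irf1 and Gbp7 (adjusted p 0.0566 to 0.0683), and Gbp4 passed without each library.

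The promoters of some fallen genes are shown, each with a match to a regulatory sequence that its list is known for, given in capitals. Promoters of 300 bases, 250 before and 50 after the gene start, were searched on both strands, and the 250 bases before the start are printed. They come from RefSeq on GRCm38.p6, an older build than that of the counts, for 14624 of the 20235 genes tested (72.3%). The capitals mark the matches. The locations are Zfp36 at chr7:28379229-28379478 (minus strand), Dusp1 at chr17:26508473-26508722 (minus strand), Tnfaip3 at chr10:19015411-19015660 (minus strand), Irf1 at chr11:53769764-53770013 (plus strand), Gbp7 at chr3:142530086-142530335 (plus strand) and Per1 at chr11:69098699-69098948 (plus strand).

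Zfp36: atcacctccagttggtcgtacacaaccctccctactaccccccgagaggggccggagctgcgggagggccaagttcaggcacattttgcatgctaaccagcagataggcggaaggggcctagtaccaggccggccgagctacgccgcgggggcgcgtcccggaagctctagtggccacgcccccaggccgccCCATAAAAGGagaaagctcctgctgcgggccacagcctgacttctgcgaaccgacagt

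Dusp1: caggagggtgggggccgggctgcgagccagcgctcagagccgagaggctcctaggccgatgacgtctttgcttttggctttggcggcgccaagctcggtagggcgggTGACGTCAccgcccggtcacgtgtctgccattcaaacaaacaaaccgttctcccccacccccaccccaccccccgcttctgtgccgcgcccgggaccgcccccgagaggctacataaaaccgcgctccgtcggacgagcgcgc

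Tnfaip3: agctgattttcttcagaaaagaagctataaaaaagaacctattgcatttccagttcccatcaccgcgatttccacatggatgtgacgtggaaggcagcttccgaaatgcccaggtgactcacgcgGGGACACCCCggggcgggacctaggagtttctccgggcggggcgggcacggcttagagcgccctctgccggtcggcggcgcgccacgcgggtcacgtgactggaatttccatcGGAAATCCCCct

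Irf1: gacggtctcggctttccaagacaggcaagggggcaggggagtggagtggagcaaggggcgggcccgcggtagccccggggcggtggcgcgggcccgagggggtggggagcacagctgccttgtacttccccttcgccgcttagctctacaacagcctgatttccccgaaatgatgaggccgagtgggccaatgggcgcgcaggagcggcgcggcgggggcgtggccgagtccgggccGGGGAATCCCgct

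Gbp7: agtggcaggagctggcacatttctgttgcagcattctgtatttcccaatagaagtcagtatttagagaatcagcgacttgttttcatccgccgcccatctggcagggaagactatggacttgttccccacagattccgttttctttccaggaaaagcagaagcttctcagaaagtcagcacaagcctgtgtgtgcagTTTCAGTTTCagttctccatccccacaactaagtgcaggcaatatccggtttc

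Per1: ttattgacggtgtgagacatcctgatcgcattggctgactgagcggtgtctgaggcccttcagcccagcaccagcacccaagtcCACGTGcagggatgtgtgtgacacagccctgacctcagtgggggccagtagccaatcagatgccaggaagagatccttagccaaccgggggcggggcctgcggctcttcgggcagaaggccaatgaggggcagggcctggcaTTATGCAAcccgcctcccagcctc

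The capitals mark a serum response element in Zfp36, the cAMP response element TGACGTCA in Dusp1, kappaB sites in Tnfaip3 and Irf1, an interferon-stimulated response element in Gbp7, and the E-box CACGTG and the D-box TTATGNAA in Per1. Among members with a promoter in the table, an interferon-stimulated response element was found in 20 of 30 interferon response genes (66.7%), against 3.76% of all promoters. A kappaB site was found in 14 of 21 NF-kappaB feedback genes (66.7%), against 6.28%. The cAMP response element was found in 3 of 32 immediate early genes (9.38%), against 2.95%, and the serum response element in 4 of 32 (12.5%), against 1.63%. Lists named for a regulator were chosen for it, so a match is a description of these promoters. Of 11 called interferon response genes with a promoter 8 had the element, and of 10 called NF-kappaB genes 6 had a kappaB site. Of 18 called immediate early genes 2 had the cAMP response element and 2 the serum response element. The interferon-stimulated response element was found in 2 of 27 antigen presentation promoters (7.41%) and in 0 of their 10 called members. The sterol regulatory element TCACNCCAC was found in 1 of 22 promoters of cholesterol synthesis genes (4.55%), against 1.43% of all promoters, and in 0 of 12 called members.

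Glucocorticoid response genes, which stress hormones induce through the glucocorticoid receptor, were mostly lower. Of 23 tested 0 rose (also 0 unadjusted, by DESeq2 and by limma-voom) and 14 fell, with a median of -1.42. Mt2, a metal-binding protein, had 13.6 and 26.4 CPM in WT CFA, against 209.97 and 189 CPM in WT vehicle (log2 fold change -3.32 ± 0.31, adjusted p = 0.00114). Per1, which is both a glucocorticoid target and a core clock gene, had 17.8 and 17.8 CPM in WT CFA, against 69.4 and 61.96 CPM in WT vehicle (log2 fold change -1.88 ± 0.19, adjusted p = 0.00148). The WT vehicle libraries were the 2 highest in both, and WT CFA lay within the range of the iKO libraries or under it. The counts higher and lower were 0 and 4 without WT vehicle library 1, 0 and 11 without library 2, 1 and 15 without WT CFA library 1, 0 and 21 without library 2, and 0 and 12 to 13 without an iKO library. Every call named here was kept without each library in turn.

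Clock genes fell in part. Of 23 tested 1 rose and 6 fell (median -0.38), against 8.12% higher and 8.71% lower over all genes tested. Bhlhe40, a repressor of the clock, had 15.6 and 17.2 CPM in WT CFA, against 61.5 and 62.05 CPM in WT vehicle (log2 fold change -1.91 ± 0.18, adjusted p = 0.00118). Per3, a period gene, had 2.03 and 3.73 CPM in WT CFA, against 19.4 and 15.3 CPM in WT vehicle (log2 fold change -2.60 ± 0.36, adjusted p = 0.00421). Left-out libraries gave 0 higher and 2 lower without WT vehicle library 1, 0 and 3 without library 2, 3 and 10 without WT CFA library 1, 3 and 7 without library 2, and 1 and 4 without an iKO library. Total counts in place of scaled sizes gave 1 higher and 10 lower (median -0.70). An E-box was found in 6 of 19 promoters of this list (31.6%), against 10.5% of all promoters, and a D-box in 2 of 19 (10.5%), against 2.97%. Tspan4, a tetraspanin and not a core clock gene, is in the list and among its calls and E-box matches. Significance was lost without WT vehicle library 1 for Per3 (adjusted p = 0.0562), and Bhlhe40 passed without each library.

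Of 34 heat shock and folding genes tested 1 rose and 5 fell (median -0.05), against 8.12% higher and 8.71% lower over all genes tested. Hspb8, a small heat shock protein of nerve and muscle, had 507 and 687 CPM in WT CFA, against 198 and 258 CPM in WT vehicle (log2 fold change 1.39 ± 0.22, adjusted p = 0.00716). Hsp90b1, the chaperone of the endoplasmic reticulum that plasma cells use heavily, had 365 and 349 CPM in WT CFA, against 939 and 629 CPM in WT vehicle (log2 fold change -1.13 ± 0.23, adjusted p = 0.0149). A heat shock element was found in 3 of 27 promoters of this list (11.1%), against 0.602%, and in 0 of its 6 called members with a promoter. Recounts higher and lower were 0 and 0 (3 and 3 at an unadjusted p under 0.05) without WT vehicle library 1, 1 and 5 without library 2, 3 and 8 without WT CFA library 1, 5 and 6 without library 2, and 1 and 2 without an iKO library. Scaling to total counts gave 1 higher and 8 lower (median -0.38), and with scaled sizes the median turned to 0.04 without WT CFA library 2. The threshold was missed without WT vehicle library 1 for both genes (adjusted p 0.0863 to 0.115).

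Noncoding RNAs that stay in the nucleus showed some of the largest differences in the data. Of 27 tested 0 rose (also 0 unadjusted, by DESeq2 and by limma-voom) and 17 fell, with a median of -2.53. Their summed level was 392 and 488 CPM in WT CFA, against 5009 and 4788 CPM in WT vehicle and 308 to 393 CPM in the iKO libraries. Snhg11, a noncoding RNA of neurons, had 25.2 and 17.7 CPM in WT CFA, against 721 and 851 CPM in WT vehicle (log2 fold change -5.19 ± 0.26, adjusted p = 1.31e-04). Miat, another neuronal noncoding RNA, had 10.02 and 4.96 CPM in WT CFA, against 314 and 407 CPM in WT vehicle (log2 fold change -5.58 ± 0.38, adjusted p = 2.55e-04). Neat1, the scaffold of nuclear paraspeckles, had 6.25 and 9.48 CPM in WT CFA, against 785 and 459 CPM in WT vehicle (log2 fold change -6.31 ± 0.51, adjusted p = 5.55e-04). Malat1, an abundant RNA of nuclear speckles, had 36.3 and 39.3 CPM in WT CFA, against 1323 and 1187 CPM in WT vehicle (log2 fold change -5.05 ± 0.33, adjusted p = 2.14e-04), and Meg3, an imprinted RNA, had 8.36 and 3.59 CPM in WT CFA, against 877 and 1098 CPM in WT vehicle (log2 fold change -7.36 ± 0.58, adjusted p = 5.17e-04). In each of them WT CFA lay close to the iKO libraries, and WT vehicle stood alone. Higher and lower members numbered 0 and 7 without WT vehicle library 1, 0 and 14 without library 2, 1 and 17 without WT CFA library 1, 0 and 22 without library 2, and 0 and 15 to 16 without an iKO library. Every call named here was kept without each library in turn.

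Splicing regulators, many of whose RNAs are held in the nucleus with introns retained, were also mostly lower. Of 37 tested 0 rose (also 0 unadjusted, by DESeq2 and by limma-voom) and 23 fell, with a median of -0.95. Clk1, a kinase of splicing factors, had 11.2 and 15.2 CPM in WT CFA, against 98.3 and 70.6 CPM in WT vehicle (log2 fold change -2.68 ± 0.25, adjusted p = 0.00106). Pnisr, a protein of nuclear speckles, had 16.2 and 7.7 CPM in WT CFA, against 115 and 97.6 CPM in WT vehicle (log2 fold change -3.15 ± 0.33, adjusted p = 0.00156). Leng8, from outside these lists and named for its small p, had 9.16 and 7.08 CPM in WT CFA, against 125 and 128 CPM in WT vehicle (log2 fold change -3.96 ± 0.23, adjusted p = 1.46e-04). In refits the counts were 0 higher and 7 lower without WT vehicle library 1, 0 and 18 without library 2, 0 and 30 without WT CFA library 1, 0 and 25 without library 2, and 0 and 18 without an iKO library. All of these calls held without each library in turn.

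Of 38 histone lysine demethylases and methyltransferases, the family of the gene deleted in iKO, 0 rose (also 0 unadjusted, by DESeq2 and by limma-voom) and 13 fell, with a median of -0.53. Kdm6b, a demethylase of histone H3 lysine 27, had 13.1 and 12.7 CPM in WT CFA, against 46.3 and 44.6 CPM in WT vehicle (log2 fold change -1.82 ± 0.18, adjusted p = 0.00118). Jmjd1c, a relative of lysine 9 demethylases, had 27.6 and 25.7 CPM in WT CFA, against 92.2 and 90.4 CPM in WT vehicle (log2 fold change -1.78 ± 0.18, adjusted p = 0.00127), and Dot1l, the lysine 79 methyltransferase, had 7.85 and 9.86 CPM in WT CFA, against 37.2 and 32.4 CPM in WT vehicle (log2 fold change -1.98 ± 0.22, adjusted p = 0.00175). The WT vehicle libraries were the 2 highest of the 8 for each. Ehmt1, the partner of G9a in methylating lysine 9, had 16.6 and 9.79 CPM in WT CFA, against 29.4 and 23.03 CPM in WT vehicle (log2 fold change -0.99 ± 0.27, adjusted p = 0.0404) and was chosen after its values were seen, whereas Ehmt2 itself did not pass (log2 fold change -0.04 ± 0.17, adjusted p = 0.891). Refits gave 0 higher and 3 lower without WT vehicle library 1, 0 and 6 without library 2, 0 and 27 without WT CFA library 1, 2 and 13 without library 2, and 0 and 8 to 9 without an iKO library. Unscaled library totals gave 0 higher and 21 lower (median -0.86). No call was made without WT vehicle library 1 for Ehmt1 (adjusted p = 0.252), without WT vehicle library 2 for Ehmt1 (adjusted p = 0.078) and without any iKO library for Ehmt1 (adjusted p 0.0624 to 0.0793), and Kdm6b, Jmjd1c and Dot1l passed without each library.

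Most lymphocyte genes tested were lower in WT CFA. Of 30 plasma and B cell genes tested 0 rose (also 0 unadjusted, by DESeq2 and by limma-voom) and 20 fell, with a median of -4.30, or -4.17 when the 5 members with 0 reads in WT CFA are set at the bound that a floor of 3 reads over the group gives. The summed level of the list was 376 and 366 CPM in WT CFA, against 2600.5 and 1245 CPM in WT vehicle and 343 to 391 CPM in the iKO libraries, so WT CFA lay within the iKO range. Jchain, the joining chain of antibodies, had 0.961 and 0.445 CPM in WT CFA, against 1944 and 780.1 CPM in WT vehicle (log2 fold change -10.88 ± 0.73, adjusted p = 2.44e-04). Igk and Igh, the light and heavy chain loci, had 0.427 and 2.98 CPM and 5.55 and 5.3 CPM in WT CFA, against 209 and 75.9 CPM and 394 and 160.2 CPM in WT vehicle. Mzb1, a plasma cell protein, had 0 reads in both WT CFA libraries and 4037 in WT vehicle, at least 1415-fold lower. Igl, the other light chain locus, had 0 reads in WT CFA and 767 in WT vehicle, at least 269-fold lower. WT vehicle library 1 was the higher of its pair in each of these genes. Cd79b, a chain of the B cell receptor, had 0.561 and 0.548 CPM in WT CFA, against 12.9 and 8.01 CPM in WT vehicle (log2 fold change -4.23 ± 0.45, adjusted p = 0.00169). Library by library the counts higher and lower were 0 and 6 without WT vehicle library 1, 0 and 14 without library 2, 0 and 21 without WT CFA library 1, 1 and 24 without library 2, and 0 and 16 to 17 without an iKO library. Every call named here was kept without each library in turn.

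T cell and natural killer genes went the same way. Of 37 tested 0 rose (also 0 unadjusted, by DESeq2 and by limma-voom) and 29 fell, the largest share of any list of immune cells, with a median of -4.81 (-4.55 with 8 members without reads in WT CFA at their bound). Their summed level was 27.1 and 42.2 CPM in WT CFA, against 233 and 191 CPM in WT vehicle and 68.4 to 72.5 CPM in the iKO libraries, so WT CFA lay below the iKO libraries as well. Cd4, the helper T cell co-receptor, had 0.881 and 0.376 CPM in WT CFA, against 16.6 and 10.3 CPM in WT vehicle (log2 fold change -4.38 ± 0.46, adjusted p = 0.00156). Il7r, the interleukin 7 receptor, had 0 reads in WT CFA and 357 in WT vehicle, at least 125-fold lower (adjusted p = 0.00169). Tigit, a checkpoint receptor, had 1 read in WT CFA and 370 in WT vehicle, 389-fold lower with a 95% counting interval of 69.4 to 15405. With a library left out there were 0 higher and 10 lower without WT vehicle library 1, 0 and 18 without library 2, 1 and 30 without WT CFA library 1, 0 and 32 without library 2, and 0 and 27 to 28 without an iKO library. All of these calls held without each library in turn.

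Some signals that recruit and arrange lymphocytes fell, while most of those tested did not pass. Of 21 lymphoid tissue organisers 0 rose (1 at an unadjusted p under 0.05, 1 by DESeq2 and 1 by limma-voom) and 5 fell (median -0.78), and of 28 chemokines 0 rose (also 0 unadjusted, by DESeq2 and by limma-voom) and 12 fell (median -2.71). The summed level of the organisers was 468 and 418 CPM in WT CFA, against 407 and 422 CPM in WT vehicle and 497 to 604 CPM in the iKO libraries, groups that overlapped, and that of the chemokines was 66.2 and 138 CPM in WT CFA, against 492 and 397 CPM in WT vehicle and 72.5 to 185 CPM in the iKO libraries. Cxcl13, the B cell attractant of follicles, had 0 reads in WT CFA and 2344 in WT vehicle, at least 821-fold lower. Ccl8, a monocyte attractant, had 0.214 and 0 CPM in WT CFA, against 56.6 and 31.2 CPM in WT vehicle (log2 fold change -8.50 ± 0.98, adjusted p = 0.00209), and Ccl5, a T cell attractant, had 0.134 and 1.1 CPM in WT CFA, against 24.7 and 13.05 CPM in WT vehicle (log2 fold change -4.99 ± 0.78, adjusted p = 0.00657). For the organisers the counts higher and lower were 0 and 2 without WT vehicle library 1, 0 and 3 without library 2, 1 and 8 without WT CFA library 1, 1 and 9 without library 2, and 0 and 4 to 5 without an iKO library. For the chemokines left-out libraries gave 0 higher and 2 lower without WT vehicle library 1, 0 and 4 without library 2, 1 and 15 without WT CFA library 1, 0 and 19 without library 2, and 0 and 7 to 11 without an iKO library. The threshold was missed without WT vehicle library 1 for Ccl5 (adjusted p = 0.0735), and Cxcl13 and Ccl8 passed without each library.

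Antigen presentation genes fell where they passed, as did a smaller share of macrophage genes. Of 34 antigen presentation genes 0 rose (also 0 unadjusted, by DESeq2 and by limma-voom) and 17 fell, with a median of -1.71. Itgax, the dendritic cell integrin CD11c, had 0.214 and 0.445 CPM in WT CFA, against 10.99 and 8.4 CPM in WT vehicle (log2 fold change -4.89 ± 0.53, adjusted p = 0.00169), and Nlrc5, the activator of MHC class I genes, had 3.23 and 4.41 CPM in WT CFA, against 49.1 and 36.8 CPM in WT vehicle (log2 fold change -3.49 ± 0.43, adjusted p = 0.00286). Recounts higher and lower were 0 and 4 without WT vehicle library 1, 0 and 8 without library 2, 1 and 16 without WT CFA library 1, 0 and 27 without library 2, and 0 and 11 to 15 without an iKO library. Of 36 macrophage genes 0 rose (2 at an unadjusted p under 0.05, 1 by DESeq2 and 0 by limma-voom) and 8 fell, with a median of -0.95. Their summed level was 3982 and 7935 CPM in WT CFA, against 4700.2 and 4019 CPM in WT vehicle and 3792 to 6949.8 CPM in the iKO libraries, with WT CFA library 2 the highest and library 1 the lowest of the WT libraries. Cd14, the lipopolysaccharide co-receptor, had 4.59 and 6.54 CPM in WT CFA, against 30.2 and 33.6 CPM in WT vehicle (log2 fold change -2.52 ± 0.32, adjusted p = 0.00307). Ctss, a lysosomal protease, had 15.8 and 36.99 CPM in WT CFA, against 204 and 137 CPM in WT vehicle (log2 fold change -2.69 ± 0.46, adjusted p = 0.0089), and Mpeg1, a pore-forming protein of phagocytes, had 16.9 and 39.3 CPM in WT CFA, against 186 and 124 CPM in WT vehicle (log2 fold change -2.47 ± 0.46, adjusted p = 0.0121). Higher and lower members numbered 0 and 1 without WT vehicle library 1, 0 and 4 without library 2, 3 and 8 without WT CFA library 1, 0 and 27 without library 2, and 0 and 7 without an iKO library. The test no longer passed without WT vehicle library 1 for Ctss and Mpeg1 (adjusted p 0.0883 to 0.112), and Itgax, Nlrc5 and Cd14 passed without each library.

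More complement genes fell than rose, and most did not pass. Of 33 complement and coagulation genes 3 rose and 8 fell (median -0.80), against 8.12% higher and 8.71% lower over all genes tested. The summed level of the list was 1499 and 1844 CPM in WT CFA, against 1956 and 1735 CPM in WT vehicle and 1386 to 2085 CPM in the iKO libraries. Cfb, complement factor B, had 5.21 and 4.59 CPM in WT CFA, against 33.7 and 34.7 CPM in WT vehicle (log2 fold change -2.80 ± 0.20, adjusted p = 2.96e-04), below all iKO libraries. C3, the central complement protein, had 6.52 and 9.82 CPM in WT CFA, against 167 and 110.1 CPM in WT vehicle (log2 fold change -4.09 ± 0.52, adjusted p = 0.00323). In refits the counts were 0 higher and 3 lower without WT vehicle library 1, 1 and 4 without library 2, 5 and 8 without WT CFA library 1, 3 and 20 without library 2, and 0 and 6 to 7 without an iKO library. Total counts as library sizes gave 1 higher and 10 lower (median -1.12). All of these calls held without each library in turn. Of 26 neutrophil and mast cell genes 0 rose (6 at an unadjusted p under 0.05, 3 by DESeq2 and 0 by limma-voom) and 1 fell, although the median was 0.78. Ltf, the neutrophil granule protein lactoferrin, had 5.1 and 25.3 CPM in WT CFA, against 5.19 and 3.6 CPM in WT vehicle, and 10.4 to 183 CPM in the iKO libraries, and did not pass (adjusted p = 0.075). WT CFA library 2 alone was high in WT. The fallen member was Tpsab1, a mast cell tryptase, with 0 and 0.205 CPM in WT CFA, against 1.31 and 0.923 CPM in WT vehicle (log2 fold change -3.51 ± 0.98, adjusted p = 0.0423). Refits gave 0 higher and 0 lower (6 and 2 at an unadjusted p under 0.05) without WT vehicle library 1, 0 and 0 (0 and 3 at an unadjusted p under 0.05) without library 2, 12 and 1 without WT CFA library 1, 1 and 5 without library 2, and 0 and 0 without an iKO library. Total counts in place of scaled sizes gave 0 higher and 3 lower (median 0.46), and with scaled sizes the median became -0.62 without WT CFA library 2. The call of Tpsab1 did not hold without WT vehicle library 1 (adjusted p = 0.216), without WT vehicle library 2 (adjusted p = 0.101) and without any iKO library (adjusted p 0.0688 to 0.0843).

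Markers of satellite glia, which wrap the neuron bodies, went both ways where they passed. Of 24 tested 4 rose and 2 fell (median 0.27), against 8.12% higher and 8.71% lower over all genes tested. Kcnj10, the potassium channel Kir4.1 of these cells, had 106 and 138 CPM in WT CFA, against 67.6 and 62.7 CPM in WT vehicle (log2 fold change 0.90 ± 0.19, adjusted p = 0.0168). Fabp7, a fatty acid binding protein, had 341 and 746 CPM in WT CFA, against 209.8 and 267 CPM in WT vehicle (log2 fold change 1.19 ± 0.33, adjusted p = 0.0416), with WT CFA library 2 the higher of its pair. Vcan, a matrix proteoglycan, had 7.4 and 7.8 CPM in WT CFA, against 21.01 and 15.04 CPM in WT vehicle (log2 fold change -1.25 ± 0.27, adjusted p = 0.0192). Library by library the counts higher and lower were 0 and 0 (4 and 2 at an unadjusted p under 0.05) without WT vehicle library 1, 0 and 1 without library 2, 11 and 2 without WT CFA library 1, 6 and 4 without library 2, and 0 to 2 and 2 without an iKO library. Scaling to total counts gave 0 higher and 2 lower (median -0.05). The call was lost without WT vehicle library 1 for all of the called genes (adjusted p 0.127 to 0.276), without WT vehicle library 2 for Kcnj10 and Fabp7 (adjusted p 0.092 to 0.112) and without 1 or more of the iKO libraries for Kcnj10 and Fabp7 (adjusted p 0.055 to 0.0944). Of 26 genes of Schwann cell myelin 0 rose (also 0 unadjusted, by DESeq2 and by limma-voom) and 1 fell (median -0.06). The fallen gene was Egr2, a myelin transcription factor that is also an immediate early gene, with 10.98 and 21.2 CPM in WT CFA, against 68.2 and 41.4 CPM in WT vehicle (log2 fold change -1.77 ± 0.34, adjusted p = 0.0131). With a library left out there were 0 higher and 0 lower (2 and 1 at an unadjusted p under 0.05) without WT vehicle library 1, 0 and 1 without library 2, 5 and 4 without WT CFA library 1, 1 and 6 without library 2, and 0 and 1 without an iKO library. On total counts 0 higher and 2 lower (median -0.38) were called, and with scaled sizes the median became 0.32 without WT vehicle library 1 and 0.25 without WT CFA library 1. The call of Egr2 did not hold without WT vehicle library 1 (adjusted p = 0.133).

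Some vessel and connective tissue genes passed. Of 32 endothelial and pericyte genes 3 rose and 4 fell (median -0.22), shares near those over all genes tested (8.12% higher and 8.71% lower). Sele, the endothelial adhesion molecule E-selectin, had 0 reads in WT CFA and 329 in WT vehicle, at least 115-fold lower (adjusted p = 0.0013). The counts higher and lower were 0 and 1 without WT vehicle library 1, 0 and 4 without library 2, 5 and 5 without WT CFA library 1, 2 and 13 without library 2, and 1 and 3 without an iKO library. Under scaling to total counts 1 higher and 6 lower (median -0.55) passed, and with scaled sizes the median turned to 0.09 without WT CFA library 1. Of 42 fibroblast and matrix genes 1 rose and 9 fell (median -0.33), against 8.12% higher and 8.71% lower over all genes tested. Thbs1, the matrix protein thrombospondin 1, had 11.2 and 15.02 CPM in WT CFA, against 137 and 73.6 CPM in WT vehicle (log2 fold change -3.01 ± 0.32, adjusted p = 0.0016). Left-out libraries gave 0 higher and 2 lower without WT vehicle library 1, 0 and 6 without library 2, 9 and 10 without WT CFA library 1, 2 and 21 without library 2, and 0 and 5 to 6 without an iKO library. Unscaled library totals gave 0 higher and 12 lower (median -0.65), and with scaled sizes the median became 0.02 without WT CFA library 1. Each of these calls was kept without each library in turn.

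Markers of skeletal muscle, a tissue outside the ganglion, differed between single libraries. Of 19 skeletal muscle genes 0 rose (also 0 unadjusted, by DESeq2 and by limma-voom) and 13 fell, with a median of -6.26. DESeq2 called 15 lower, whereas limma-voom and the 4 WT libraries alone called 0 (1 and 14 at an unadjusted p under 0.05). Their summed level was 86.1 and 175 CPM in WT CFA, against 744 and 96.3 CPM in WT vehicle and 116 to 142 CPM in the iKO libraries, so WT vehicle library 1 alone was high. Myh4, a fast myosin, had 0.187 and 0 CPM in WT CFA, against 60.99 and 0.626 CPM in WT vehicle (log2 fold change -8.17 ± 2.03, adjusted p = 0.0292), and Ttn, the giant muscle protein titin, had 0.214 and 0.411 CPM in WT CFA, against 26.7 and 1.79 CPM in WT vehicle (log2 fold change -5.52 ± 1.16, adjusted p = 0.0174). Myh1, another fast myosin, had 0 reads in WT CFA and 1855 in WT vehicle, at least 650.04-fold lower, with 61.8 CPM in WT vehicle library 1 and 0.328 CPM in library 2. Recounts higher and lower were 0 and 0 (0 and 2 at an unadjusted p under 0.05) without WT vehicle library 1, 0 and 15 without library 2, 1 and 14 without WT CFA library 1, 0 and 14 without library 2, and 0 and 6 to 12 without an iKO library. The test no longer passed without WT vehicle library 1 for all of the called genes (adjusted p 0.155 to 0.404) and without 1 or more of the iKO libraries for Myh4 and Myh1 (adjusted p 0.0528 to 0.0596).

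Of 15 red blood cell genes 0 rose and 0 fell by edgeR (7 at an unadjusted p under 0.05, 3 by DESeq2 and 0 by limma-voom), with a median of 1.90. Hba-a1, a haemoglobin chain with a near-identical copy, had 66.6 and 509 CPM in WT CFA, against 111 and 46.7 CPM in WT vehicle, and Slc4a1, the anion exchanger of red cells, had 4.46 and 44.8 CPM in WT CFA, against 5.03 and 1.64 CPM in WT vehicle. WT CFA library 2 was the high library in both, and WT CFA library 1 lay within the WT vehicle range. Higher and lower members numbered 0 and 0 (6 and 0 at an unadjusted p under 0.05) without WT vehicle library 1, 0 and 0 (0 and 0 at an unadjusted p under 0.05) without library 2, 14 and 0 without WT CFA library 1, 0 and 1 without library 2, and 0 and 0 without an iKO library. With scaled sizes the median became -0.31 without WT CFA library 2. Of 17 spinal cord, bone and cartilage genes 1 rose and 2 fell (median -0.43), against 8.12% higher and 8.71% lower over all genes tested. Gfap, a glial filament protein that injury induces, had 2.24 and 4.31 CPM in WT CFA, against 31.2 and 27.3 CPM in WT vehicle (log2 fold change -3.17 ± 0.34, adjusted p = 0.00169), and Gad1, an enzyme of GABA synthesis, had 0.561 and 0.274 CPM in WT CFA, against 1.78 and 1.31 CPM in WT vehicle (log2 fold change -1.84 ± 0.36, adjusted p = 0.0138), far under the iKO range of 15.04 to 18.2 CPM. In refits the counts were 0 higher and 1 lower without WT vehicle library 1, 0 and 2 without library 2, 2 and 4 without WT CFA library 1, 2 and 4 without library 2, and 1 and 2 without an iKO library. Calls were lost without WT vehicle library 1 for Gad1 (adjusted p = 0.116), and Gfap passed without each library.

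The counts of the remaining lists stand beside 8.12% higher and 8.71% lower over all genes tested. Of 18 adipocyte genes 2 rose and 1 fell (median 0.26). Refits gave 0 higher and 0 lower (3 and 1 at an unadjusted p under 0.05) without WT vehicle library 1, 1 and 1 without library 2, 5 and 2 without WT CFA library 1, 3 and 6 without library 2, and 0 and 1 without an iKO library. On total counts 0 higher and 2 lower (median -0.06) were called, and with scaled sizes the median became -0.61 without WT CFA library 2. Of 28 replication-dependent histones 1 rose and 0 fell (1 at an unadjusted p under 0.05, 0 by DESeq2 and 0 by limma-voom; median -0.19). Library by library the counts higher and lower were 0 and 0 (4 and 0 at an unadjusted p under 0.05) without WT vehicle library 1, 0 and 0 (1 and 1 at an unadjusted p under 0.05) without library 2, 3 and 3 without WT CFA library 1, 2 and 0 without library 2, and 1 and 0 without an iKO library. With scaled sizes the median turned to 0.32 without WT vehicle library 1. Of 35 cell cycle genes 0 rose (1 at an unadjusted p under 0.05, 0 by DESeq2 and 0 by limma-voom) and 2 fell (median -0.58), against 6 lower by DESeq2 and 5 by limma-voom. With a library left out there were 0 higher and 0 lower (0 and 2 at an unadjusted p under 0.05) without WT vehicle library 1, 0 and 0 (0 and 10 at an unadjusted p under 0.05) without library 2, 1 and 4 without WT CFA library 1, 0 and 17 without library 2, and 0 and 0 to 1 without an iKO library. Unscaled library totals gave 0 higher and 5 lower (median -0.90).

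**Figure D4:**
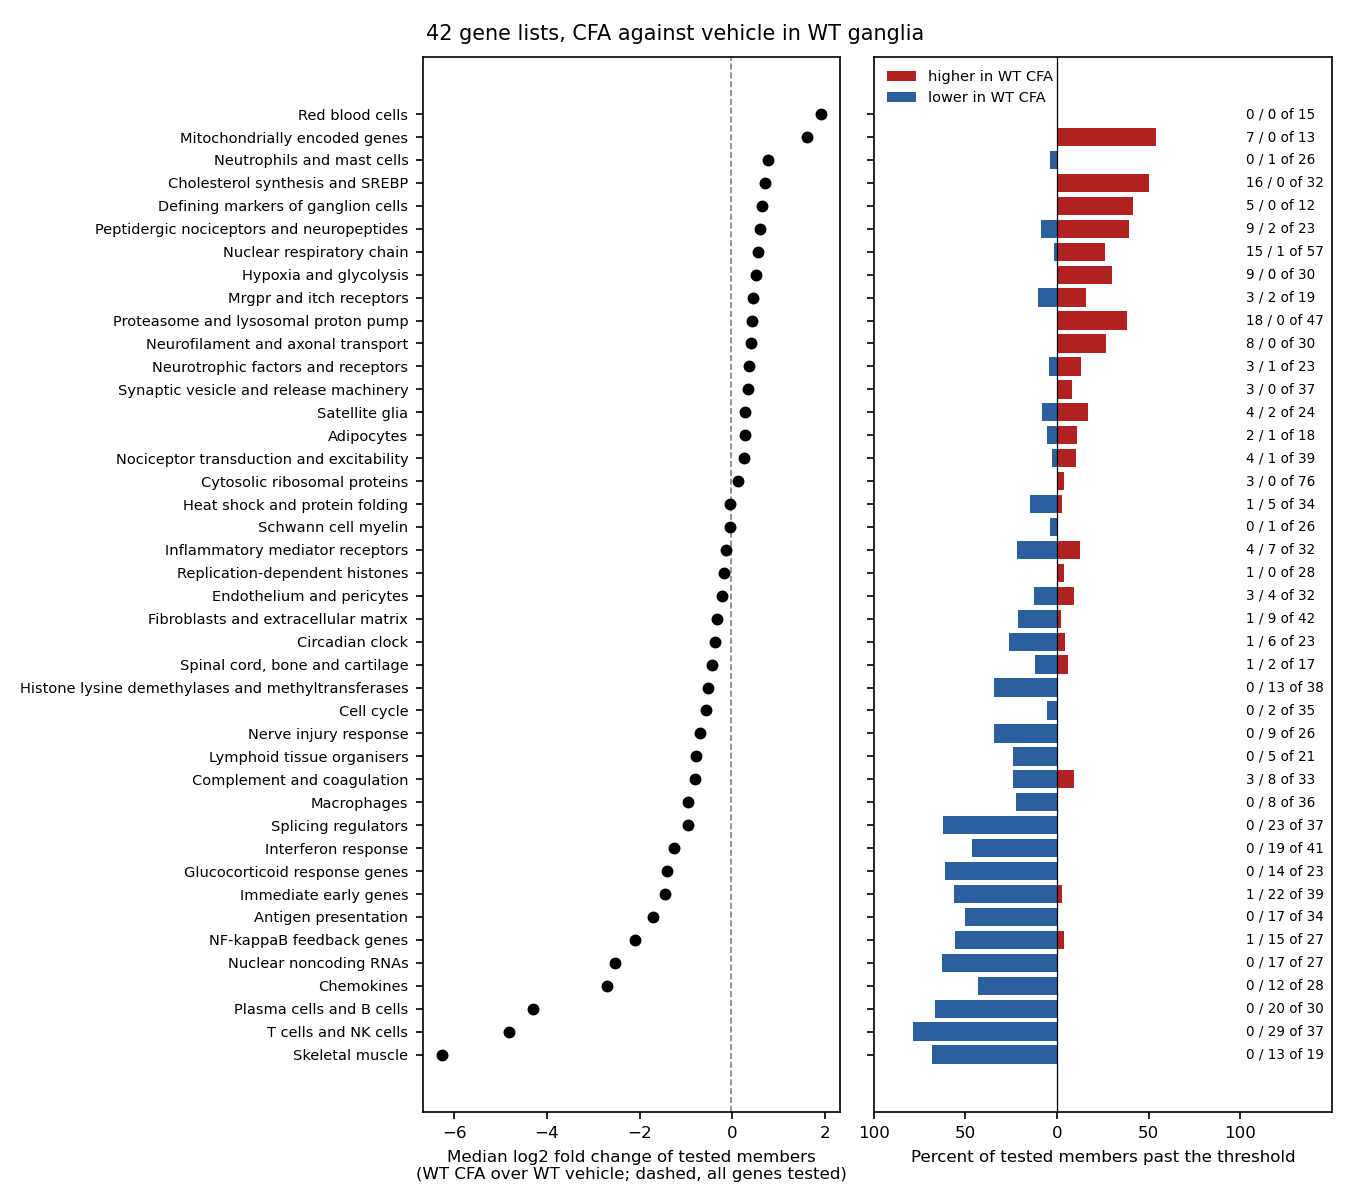
Left, median log2 fold change of WT CFA over WT vehicle over the tested members of 42 gene lists, with the median of all genes tested dashed. Right, percent of tested members past the threshold, higher to the right and lower to the left of 0, with the counts higher / lower of tested. T cell and NK, skeletal muscle, plasma and B cell, nuclear noncoding RNA and splicing lists hold the largest shares of lower members, and mitochondrially encoded and cholesterol synthesis genes the largest shares of higher ones.

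Several of the strongest single calls were in near-identical gene copies, and 6 such pairs were chosen after their values were seen. Reads of a gene and its copy can be assigned to either, so the values of each are uncertain, and the sum of the pair is given beside them. Ndufs5-ps, a pseudogene of the complex I subunit Ndufs5, had 91.4 and 130.3 CPM in WT CFA, against 1.17 and 0.477 CPM in WT vehicle (log2 fold change 7.08 ± 0.42, adjusted p = 1.83e-04). Ndufs5 itself had 12.1 and 17.9 CPM in WT CFA, against 63.9 and 71.3 CPM in WT vehicle (log2 fold change -2.17 ± 0.22, adjusted p = 0.00131). The copy was high and the gene low in WT CFA, and their sum was 104 and 148 CPM in WT CFA, against 65.1 and 71.8 CPM in WT vehicle (ratio of means 1.84). Atp6v0c, the membrane ring subunit of the proton pump, had 325 and 218 CPM in WT CFA, against 74.4 and 87.5 CPM in WT vehicle (log2 fold change 1.75 ± 0.23, adjusted p = 0.00332), and its copy Atp6v0c-ps2 had 2.27 and 1.75 CPM in WT CFA, against 40.5 and 56.9 CPM in WT vehicle (log2 fold change -4.59 ± 0.25, adjusted p = 1.46e-04). Their sum was 328 and 219 CPM in WT CFA, against 115 and 144 CPM in WT vehicle (ratio of means 2.11). Hmga1, a chromatin protein, had 57.2 and 50.4 CPM in WT CFA, against 19.2 and 21.7 CPM in WT vehicle (log2 fold change 1.39 ± 0.18, adjusted p = 0.00309), and with Hmga1b the sum was 61.99 and 53.9 CPM in WT CFA, against 37.3 and 42.9 CPM in WT vehicle (ratio of means 1.44). In these pairs the ratio of the sums was smaller than that of the member that rose.

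Rps2, a ribosomal protein, had 336 and 628 CPM in WT CFA, against 143 and 104 CPM in WT vehicle (log2 fold change 1.97 ± 0.31, adjusted p = 0.00651), and its copy Rps2-ps10 had 0.614 and 1.54 CPM in WT CFA, against 169 and 145 CPM in WT vehicle (log2 fold change -7.22 ± 0.48, adjusted p = 2.44e-04), with a sum of 337 and 629.8 CPM in WT CFA, against 312 and 248 CPM in WT vehicle (ratio of means 1.72). Rnps1-ps, a copy of a splicing factor gene, had 0.347 and 0.308 CPM in WT CFA, against 19.1 and 20.7 CPM in WT vehicle (log2 fold change -5.90 ± 0.25, adjusted p = 8.28e-05), whereas the sum with Rnps1 was 57.4 and 39.1 CPM in WT CFA, against 48.9 and 53.4 CPM in WT vehicle (ratio of means 0.942), groups that overlapped. Glo1-ps, a copy of the glyoxalase gene, had 0.374 and 0.513 CPM in WT CFA, against 10.6 and 16.4 CPM in WT vehicle (log2 fold change -4.93 ± 0.32, adjusted p = 2.14e-04), with a sum of 218 and 221 CPM in WT CFA, against 151 and 164 CPM in WT vehicle (ratio of means 1.4). In all 6 pairs the sum differed less between the groups than the copy did. The iKO libraries had 0.245 to 0.685 CPM of Ndufs5-ps, so WT CFA alone was high. They had 151 to 202 CPM of Atp6v0c-ps2 and 26.3 to 29.4 CPM of Hmga1b. Rnps1-ps had 26.4 to 32.9 CPM and Glo1-ps 36.5 to 45.8 CPM there. WT CFA was the lowest group in these copies, and WT vehicle lay below the iKO libraries as well. Rps2-ps10 went the other way, with 0.861 to 2.88 CPM in the iKO libraries, so WT vehicle alone was high. No call was made without WT vehicle library 1 for Atp6v0c, Hmga1 and Rps2 (adjusted p 0.0516 to 0.0573), and the others passed without each library.

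**Figure D5:**
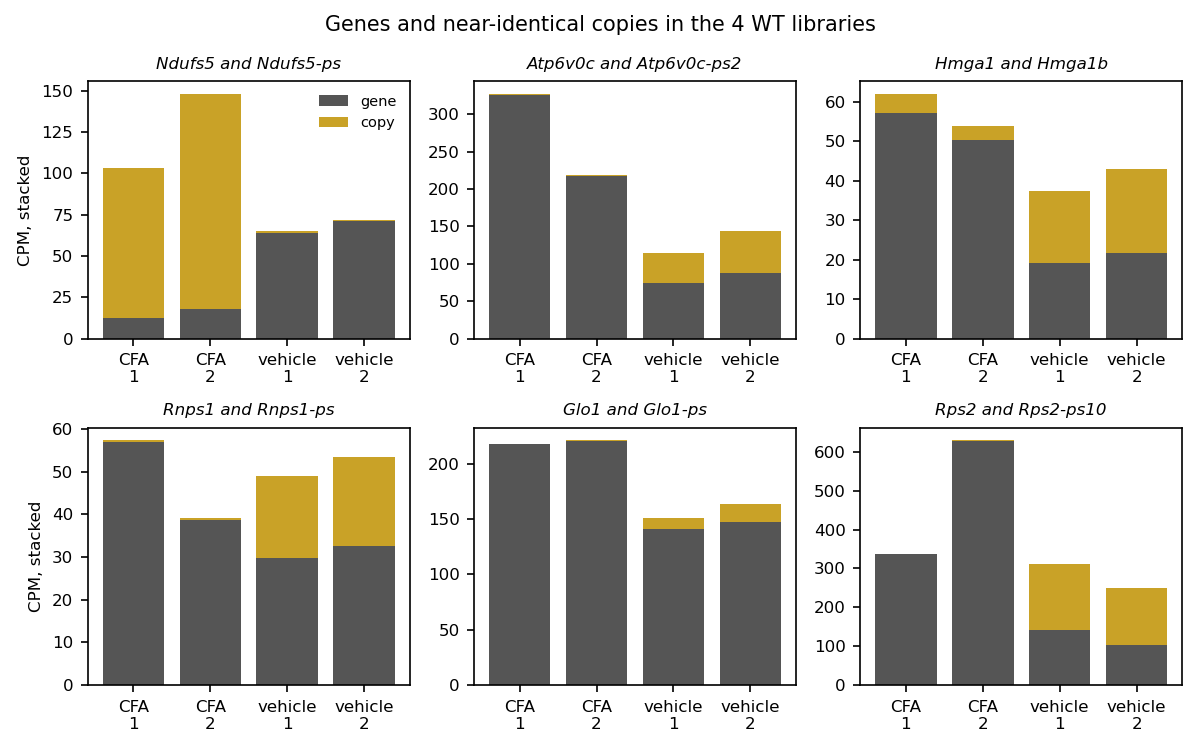
CPM of 6 genes (grey) and their near-identical copies (yellow), stacked, in the 2 WT CFA and 2 WT vehicle libraries, from left to right in each panel. The share of the pair counted to the copy differs between the groups in each panel, and the sum for Rnps1 spans 39.1 to 57.4 CPM over both groups.

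The WT response was also set against the same contrast in iKO, as the iKO response minus the WT response on the log2 scale. In edgeR's test of this difference 1895 of 20235 genes passed, of which 1357 were among the 3406 called in WT. Each contrast has its own vehicle libraries. For Trpv1 the log2 fold change with CFA was 1.21 in WT and 0.06 in iKO, and for Fos it was -4.62 in WT and 0.19 in iKO. For Scd1 it was 1.30 in WT and 0.24 in iKO, and for Malat1 it was -5.05 in WT and -0.51 in iKO. The count of 1895 was 228 without WT vehicle library 1, 1018 without WT vehicle library 2, 4615 without WT CFA library 1, 8303 without WT CFA library 2 and 373 to 530 without an iKO library.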

How the data were processed

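RNA of whole dorsal root ganglia was sequenced in 8 libraries, 2 for each of 4 groups, with 26312614 to 42971823 assigned reads each. The deposited counts are whole reads per gene symbol. Per the submitters' processing notes, the authors used HISAT2 2.2.1, SAMtools 1.19.2, featureCounts 2.0.6 and the GRCm39 build. The annotation and whether counting used strand are not given in the sources used here, so overlapping and antisense genes cannot be told apart.

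Groups followed the sample titles. Genes passing edgeR's filterByExpr (20235 of 25780) were scaled by TMM and fitted in all 8 libraries, with WT CFA against WT vehicle as a contrast, in edgeR 4.0.16 (quasi-likelihood, legacy settings) with Benjamini-Hochberg adjustment and a threshold of 0.05. limma 3.58.1, DESeq2 1.42.0 and R 4.3.3 served for alternatives, and Python 3.11.15, pandas 2.3.3, SciPy 1.17.1 and matplotlib 3.10.9 for the rest. Alternatives covered scaling, filters, tools, the block, left-out libraries and the 4 WT libraries alone.

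CPM are counts over TMM-scaled library sizes. Values after ± are approximate standard errors, the absolute log2 fold change divided by the square root of the F statistic of edgeR's test. A floor of 3 reads over a group and 95% intervals cover counting error only. Transcript lengths came from GENCODE and promoters from RefSeq on GRCm38.p6. Some members of the lists are counted but not reported here by name. The members and lists were chosen with earlier results of these data known. Named genes were, for lists of more than 25 genes, the 4 smallest p-values, for shorter lists any tested member, and 12 per direction of the largest changes (mean log2 CPM of at least 3), of calls kept in all settings and of calls outside all 6 other libraries.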

Additional observations from a re-analysis of the deposited data

Results flagged for a closer look

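Of the 139 genes with values in the report, 97 had a response to CFA that differed between iKO and WT in edgeR's quasi-likelihood test of the difference itself (adjusted p under 0.05). Of these, 6 had at most 3 reads in a WT group and are left out here. The values below are the iKO response minus the WT response on the log2 scale. A negative value means that the response was higher in WT (31 genes), and a positive one that it was lower in WT (60 genes). All of them rest on the same libraries as the WT comparison, and the number of genes past this test without each library is given in the next section. Over all 20235 genes tested, 1895 passed. Many of the 139 genes were named by their WT values, which also enter this difference. The 97 are therefore a description of the named genes, and their share is not a result about genotype.

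Among neuronal genes, the difference was -1.15 for Trpv1, -1.56 for Trpa1 and -2.33 for Hcn2, channels of nociceptors, and 2.22 for Piezo1. It was -1.45 for Mrgprx1, -1.34 for Mrgpre and 1.95 for Mrgprb5 among Mrgpr receptors, and -1.40 for Gfra3 and -1.49 for Cntfr among receptors for neurotrophic factors. For structural and vesicle genes it was -1.66 for Tuba1a, -1.33 for Tubb3, -1.23 for Uchl1, -1.02 for Isl1, -1.31 for Syt5, -1.33 for Syp and -2.03 for Slc17a7. The peptides galanin and neuropeptide Y, which fell in WT, gave 2.14 for Gal and 4.92 for Npy, and the injury genes 3.37 for Socs3 and 1.99 for Atf3. Higher responses in WT were also found in the large rises, with -1.88 for Cnmd, -1.51 for Fam171a2, -1.51 for Tlx2, -2.05 for Tmem254a, -1.51 for Vstm2l, -1.94 for Agt, -1.69 for Ly6h and -1.50 for Car8.

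In metabolism the values were -1.06 for Scd1, -1.70 for Dhcr7 and -1.58 for Sqle for cholesterol and fatty acid synthesis, -2.01 for Gapdh and -2.27 for Eno1 for glycolysis and -1.03 for Atp6ap1. Genes with near-identical copies gave 2.68 for Ndufs5, -6.02 for Ndufs5-ps, -2.04 for Atp6v0c, 4.22 for Atp6v0c-ps2, -1.48 for Hmga1 and 2.14 for Hmga1b, and copies alone 8.28 for Rps2-ps10, 5.08 for Glo1-ps and 5.78 for Rnps1-ps.

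Immediate early and glucocorticoid genes had positive differences, with 4.81 for Fos, 2.61 for Fosl2, 5.22 for Ccn1, 4.89 for Zfp36, 2.0 for Dusp1, 2.06 for Egr2 and 3.57 for Mt2, and clock genes had 1.35 for Per1, 1.67 for Bhlhe40 and 3.95 for Per3. NF-kappaB and interferon genes gave 3.66 for Birc3, 1.53 for Tnfaip3, 3.79 for Vcam1, 6.88 for Il1b, 2.53 for Irf1, 6.91 for Gbp4 and 2.58 for Gbp7. For nuclear noncoding RNAs and splicing genes the values were 4.76 for Snhg11, 4.55 for Malat1, 4.82 for Miat, 5.92 for Meg3, 7.44 for Neat1, 2.98 for Clk1, 2.67 for Pnisr and 3.32 for Leng8, and for histone-modifying enzymes 1.90 for Kdm6b, 1.48 for Jmjd1c and 2.04 for Dot1l.

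Immune genes had some of the widest differences, with 13.84 for Jchain, 7.01 for Igk, 6.15 for Igh, 5.69 for Cd79b and 5.02 for Cd4 for lymphocytes and 9.01 for Ccl8, 7.34 for Ccl5, 1.69 for Il1r1 and 5.08 for Csf2rb for chemokines and receptors. Values for antigen-presenting and myeloid cells were 5.32 for Itgax, 4.34 for Nlrc5, 3.31 for Cd14, 3.92 for Ctss, 4.10 for Mpeg1 and 5.85 for Tpsab1, and those for complement 3.83 for Cfb and 5.92 for C3. Matrix and glial genes gave 4.49 for Thbs1, 4.02 for Gfap and 1.97 for Gad1.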

How the results depend on the processing

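The 3406 genes changed in WT were 3213 to 3549 with other scalings, and 3301 and 3408 with other filters on low counts. With total counts as library sizes 519 were higher and 3030 lower. DESeq2 gave 5154 (2787 lower), limma-voom 3880 and edgeR's newer spread estimate 4178. The 4 WT libraries alone gave 754 (37 higher and 717 lower). Leaving out each library in turn gave 259 to 7474 genes in all, 20 to 3615 higher and 239 to 4198 lower. The lowest totals came without WT vehicle library 1 and the highest without WT CFA library 1. The 1895 genes whose response differed between iKO and WT were 4120 by DESeq2, 1062 with the replicate block and 228 to 8303 without each library in turn. The causes of these shifts, the smaller number of libraries in each refit among them, were not tested. A refit without 1 library leaves 1 library in that group, which then adds nothing to the estimated spread. Where a WT CFA library was left out the totals rose, so a call kept there was not a stricter check.

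Same-numbered libraries did not deviate together, since the correlation of their deviations from the group means was −0.144 between WT vehicle and WT CFA and between −0.03 and 0.03 for the other groups, so the numbers were not taken to pair the samples. With the replicate block 2524 genes changed, and with the WT CFA numbers crossed, an alternative chosen after seeing the data, 2910 did.

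Of the 130 called genes with values in the report, 69 lost their call without WT vehicle library 1, 21 without WT vehicle library 2, 14 to 21 without an iKO library, 54 with the 4 WT libraries alone, 13 with total counts, 7 with limma-voom, 9 with the block and 0 with DESeq2. In none of these settings did a called gene change direction. Depth limits the genes near 0 reads, where folds are given as bounds.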

Other observations

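The libraries of a group were not copies of each other. The chi-square of their counts per degree of freedom was 336 in WT CFA, against 65.2 in WT vehicle, with 12.01 in iKO CFA and 12.9 in iKO vehicle. Over all genes tested, libraries of WT CFA differed by a median of 0.59 on the log2 scale, against 0.28 in WT vehicle, with 0.20 in iKO CFA and 0.17 in iKO vehicle.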
